A study of Mus musculus with 4 samples.

Results

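The 10 genes described here are tied to glucocorticoid action, and whether they report on it in these libraries was not tested. They were the glucocorticoid receptor Nr3c1, the steroid-activating enzyme Hsd11b1, 6 genes that respond to glucocorticoids in many tissues (Fkbp5, Tsc22d3, Sgk1, Zbtb16, Errfi1 and Cebpb), and the metallothioneins Mt1 and Mt2. They were chosen by gene symbol and matched to Entrez identifiers. The 10 genes stood among 27179 counted genes, of which 15470 passed the filter on low counts. All 10 passed it, and each had at least 44 counts in every library.

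Bulk RNA sequencing was done on total RNA of mouse liver, labelled as from male C57BL/6 wild-type animals. One group, fasted, had been kept overnight on water alone, and the other, non-fasted, had fed freely, with 2 libraries in each group. The groups follow the library titles, while another label field gives fasting for every library. The question of the comparison was how fasting changes hepatic gene expression ahead of an overdose of the painkiller acetaminophen, and no library came from a treated animal. The sources used here, which do not include the study's supplementary methods, state neither the animals' ages nor a link from library to animal. The spread between the 2 libraries of a group, on which the p-values rest, may therefore be purely technical. It was only slightly above sampling noise (chi-square per degree of freedom 1.12 fasted and 1.13 non-fasted). The common biological coefficient of variation was 0.0099. Whether this spread is one between animals was not tested, and n below counts libraries.

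Glucocorticoids, chiefly corticosterone in mice, rise when food is withheld and promote glucose output by the liver. They bind the receptor NR3C1, which is held by heat shock chaperones and the immunophilins FKBP4 and FKBP5 and then moves to the nucleus, where it binds glucocorticoid response elements and switches genes on or off. Metallothioneins are small cysteine-rich proteins that bind zinc and copper, and their genes are switched on by glucocorticoids and, through the zinc sensor MTF1, by metals.

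The libraries differed in more than feeding, and these differences touch every value below. Total counts were 13541405 and 13528015 in the fasted libraries against 36975921 and 36943535 in the non-fasted libraries. All 14 hepatocyte markers were present in every library. They took 13.6% of counts in each fasted library, against 5.53% and 5.50% in the non-fasted libraries. Their raw counts were closer to each other, with a median ratio of fasted to non-fasted of 0.93 and a range of 0.57 to 1.24. Of 16 markers of trophoblast, the placental cells of fetal origin, 14 were tested and all 14 were lower in the fasted libraries. The sum over the 16 was 6 and 5 counts in the fasted libraries, where 11 of the 16 were at 0 in both, against 2100687 and 2118541 in the non-fasted libraries, where only Synb was at 0. The spongiotrophoblast marker Tpbpa had 3 and 0 counts in the fasted libraries against 764320 and 770857 in the non-fasted libraries. All 6 markers of decidual stroma, the maternal side of the placenta, were lower as well, with 74 and 67 counts in sum in the fasted libraries against 87558 and 89031 in the non-fasted ones. Such markers go against the labels of the non-fasted libraries as male liver. Since they were in both non-fasted libraries and near 0 in both fasted libraries, feeding state and placental RNA cannot be told apart here by leaving libraries out, and their part in the results below was not tested.

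For this reason each of the 10 genes is given on 2 scales. A normalized count is the raw count divided by the size factor of its library, found as the median of ratios over all tested genes, and the log2 fold change, with the fasted group on top, is relative to those genes. The hepatocyte-marker scale instead takes its size factors as the median of ratios over the 14 hepatocyte markers alone, and its fold changes rest on these factors. Levels are given as counts per 100000 counts summed over those markers, so ratios of levels can differ slightly from the fitted fold changes. On the first scale the median log2 fold change of all genes tested was -0.13, and on the second it was -1.98. Adjusted p-values come from edgeR's quasi-likelihood test over all 15470 genes, and in whole liver fewer cells of a type and less RNA per cell cannot be told apart. Ratios of counts between genes within a library do not depend on the scaling. They can still differ with the mix of tissues in a library, and the part of placental RNA in them was not tested.

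Of the 10 genes, 5 were higher and 5 lower in the fasted libraries after median-of-ratios scaling, at an adjusted p under 0.05. Over all genes tested, 37.2% were higher and 45.0% were lower by the same rule, so a call alone sets no gene apart here. The receptor Nr3c1, Hsd11b1, Fkbp5, Zbtb16 and Errfi1 were the higher genes, whereas Tsc22d3, Sgk1, Cebpb, Mt1 and Mt2 were the lower genes. Their median log2 fold change was -0.06. The normalized counts of the groups did not overlap for any of the 10 genes, as was so for 91.9% of all genes tested (41.7% with the fasted libraries higher and 50.2% with them lower). On the hepatocyte-marker scale 1 gene, Errfi1, was higher and 9 were lower, where 3.89% of all genes were higher and 91.4% lower. Relative to total counts 4 of the 10 were higher and 5 lower, beside 23.0% and 62.7% of all genes, and Nr3c1 did not pass.

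**Figure D1:**
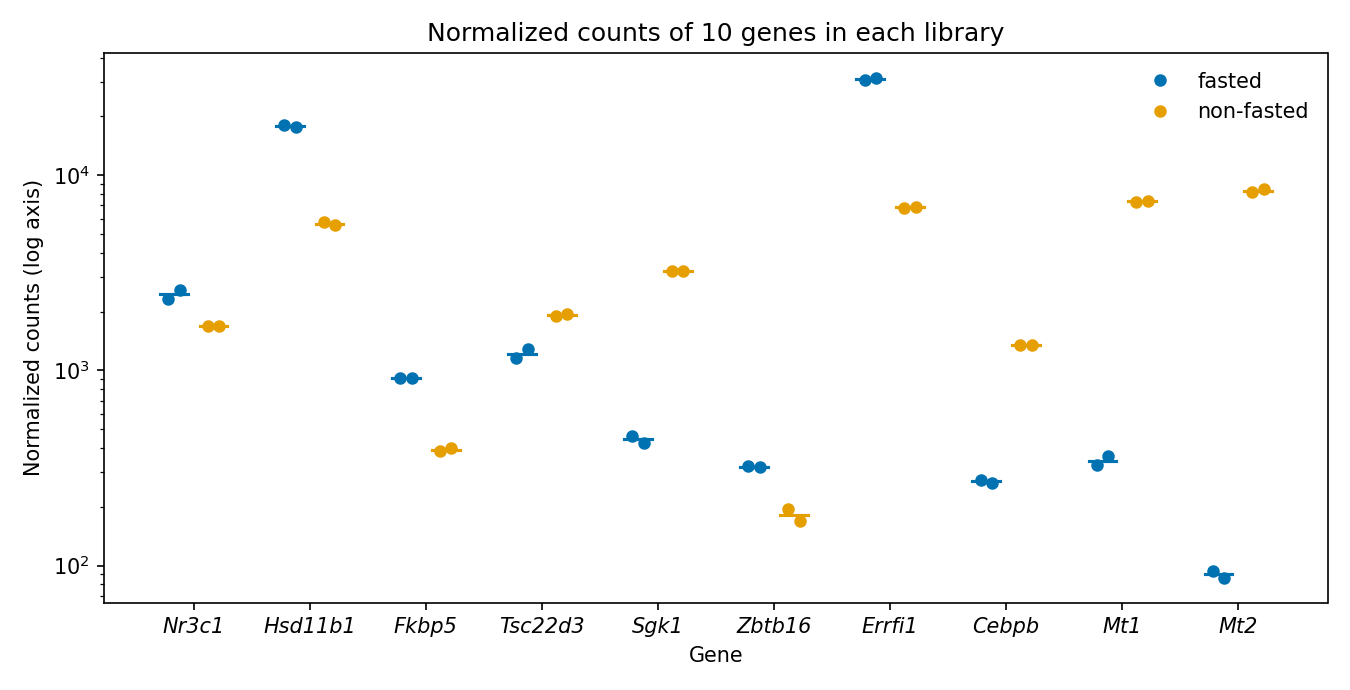
Normalized counts of the 10 genes on a log axis, with 1 point for each of the 2 fasted libraries (blue, left) and the 2 non-fasted libraries (orange, right) and a bar at each group's mean. The metallothionein Mt2 lies at 94.3 and 86.8 in the fasted libraries against 8185 and 8464 in the non-fasted libraries, the widest gap among the 10 genes, and the points of a group lie close together for every gene.

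The 2 genes that set how much hormone signal a cell receives both had higher normalized counts in the fasted libraries. Nr3c1, the receptor itself, had 2322 and 2575 normalized counts in the fasted libraries and 1682 and 1687 in the non-fasted libraries. Its log2 fold change was 0.54 ± 0.04 (SE, n = 2 per group, edgeR adjusted p = 3.6e-06), a modest rise that 28.2% of tested genes matched or exceeded. This rise depended on the scaling. Relative to total counts Nr3c1 had a log2 fold change of 0.04 (edgeR adjusted p = 0.46), and with a fixed coefficient of variation of 0.2 between libraries its adjusted p was 0.10. On the hepatocyte-marker scale it was lower, with 64.2 and 70.9 counts per 100000 marker counts in the fasted libraries against 162 and 163 in the non-fasted libraries, a log2 fold change of -1.31.

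Hsd11b1 encodes the reductase that regenerates active corticosterone from its inert keto form inside hepatocytes. It was among the more abundantly counted of the 10 genes, with 17988.5 and 17597 normalized counts in the fasted libraries and 5728 and 5548 in the non-fasted libraries. The log2 fold change was 1.66 ± 0.03 (SE, n = 2 per group, edgeR adjusted p = 3.3e-11). Most of this difference was shared with the hepatocyte markers. Per 100000 marker counts Hsd11b1 had 497 and 484 counts in the fasted libraries against 551 and 537 in the non-fasted libraries. By the fit on the hepatocyte-marker scale Hsd11b1 was 1.14-fold lower (log2 fold change -0.19, edgeR adjusted p = 4.2e-05). H6pd, which supplies the NADPH that the reductase uses in the endoplasmic reticulum, stayed in nearly the same ratio to it. Hsd11b1 counts per H6pd count were 1.04 and 1.02 in the fasted libraries against 0.97 and 0.95 in the non-fasted libraries.

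The 6 target genes did not move as a block. Errfi1 rose most, Fkbp5 and Zbtb16 rose less, and Tsc22d3, Cebpb and Sgk1 fell, with log2 fold changes that ran between -2.86 and 2.19. On the hepatocyte-marker scale Errfi1 alone of the 6 was above 0.

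Errfi1 encodes a feedback inhibitor of the epidermal growth factor receptor. It had 30928 and 31495 normalized counts in the fasted libraries against 6810 and 6910 in the non-fasted libraries. The gene rose 4.55-fold (log2 fold change 2.19 ± 0.02, SE, n = 2 per group, edgeR adjusted p = 1.3e-12), and 3.01% of tested genes rose as much or more. It stayed higher relative to the hepatocyte markers, at 855 and 867 counts per 100000 marker counts in the fasted libraries against 655 and 669 in the non-fasted libraries. By the fit on that scale Errfi1 rose 1.26-fold (edgeR adjusted p = 1.6e-08). Scaled to 6 Kupffer cell markers instead, a choice made after seeing the data, its log2 fold change was -0.07 (edgeR adjusted p = 0.33), and the other 9 genes were lower, beside 1.37% of all genes higher and 95.4% lower.

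Fkbp5, an immunophilin that lowers the receptor's affinity for hormone and is itself switched on by the receptor, had 917 and 913.0 normalized counts in the fasted libraries against 385 and 399 in the non-fasted libraries. This was a 2.33-fold rise (log2 fold change 1.22 ± 0.05, SE, n = 2 per group, edgeR adjusted p = 2.4e-08). On the hepatocyte-marker scale the direction turned, with 25.4 and 25.1 counts in the fasted libraries against 37.1 and 38.6 in the non-fasted libraries, a log2 fold change of -0.63. Within each library, Fkbp5 was higher against the receptor: 0.40 and 0.35 Fkbp5 counts per Nr3c1 count in the fasted libraries, and 0.23 and 0.24 in the non-fasted libraries.

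Zbtb16 encodes the zinc finger repressor PLZF and was thinly counted, with raw counts of 165 and 162 in the fasted libraries and 386 and 333 in the non-fasted libraries. Normalized, these were 324 and 319 in the fasted libraries against 196 and 169 in the non-fasted libraries. The log2 fold change was 0.82 ± 0.11 (SE, n = 2 per group, edgeR adjusted p = 1.0e-04), the least precise of the 10 genes. It was -1.03 on the hepatocyte-marker scale, with levels of 8.96 and 8.79 in the fasted libraries against 18.9 and 16.4 in the non-fasted libraries.

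Tsc22d3 encodes GILZ, a leucine zipper protein that carries part of the anti-inflammatory action of glucocorticoids. It had 1151 and 1280 normalized counts in the fasted libraries against 1902 and 1947 in the non-fasted libraries, and so fell where Fkbp5 rose. The log2 fold change was -0.66 ± 0.05 (SE, n = 2 per group, edgeR adjusted p = 1.3e-06), and -2.51 on the hepatocyte-marker scale. Its relative Tsc22d1, which is not a member of the 10, fell further (log2 fold change -3.04), so that Tsc22d3 counts per Tsc22d1 count were 0.59 and 0.61 in the fasted libraries against 0.12 in each non-fasted library, 5.18-fold higher. Of the other relatives, Tsc22d2 had a log2 fold change of 0.24 and Tsc22d4 one of -1.38, or -1.61 and -3.23 on the hepatocyte-marker scale.

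Cebpb encodes a leucine zipper transcription factor of the acute phase and of gluconeogenesis. Its normalized counts were 275 and 266 in the fasted libraries against 1355 and 1344 in the non-fasted libraries. This was a 4.98-fold fall (log2 fold change -2.32 ± 0.05, SE, n = 2 per group, edgeR adjusted p = 4.8e-10). The raw counts were 140 and 135 in the fasted libraries against 2667 and 2645 in the non-fasted libraries, and Cebpb was lower in the fasted libraries under every scaling tried. Total-count, hepatocyte-marker and Kupffer-marker scaling moved all log2 fold changes down together, so a gene already below 0 could only stay lower. Cebpa, the hepatocyte-enriched relative, went the other way on normalized counts (log2 fold change 1.83) and did not pass the test on the hepatocyte-marker scale (-0.02, edgeR adjusted p = 0.53). Cebpb counts per Cebpa count were 0.040 and 0.038 in the fasted libraries against 0.70 and 0.69 in the non-fasted libraries, 17.8-fold lower. Of the 1455 stretches of 50 bases in Cebpb transcripts, 18.1% lie on the opposite strand of Tmem189 transcripts, and with no strand setting stated for the counting, reads of those stretches cannot be told apart.

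Sgk1, the serum- and glucocorticoid-regulated kinase, is one of the most rapidly induced genes after hormone binds the receptor. Its normalized counts were 464 and 424 in the fasted libraries against 3250 and 3216 in the non-fasted libraries. Sgk1 fell 7.28-fold (log2 fold change -2.86 ± 0.05, SE, n = 2 per group, edgeR adjusted p = 6.8e-11), and 15.5% of tested genes fell further. Relative to the hepatocyte markers the fall was 26.3-fold, with 12.8 and 11.7 counts in the fasted libraries against 313 and 311 in the non-fasted libraries. Sgk2, a related kinase with high levels in liver, rose on both scales (log2 fold changes 2.21 and 0.36, but -0.041 relative to the Kupffer markers), and Sgk1 counts per Sgk2 count were 0.21 and 0.19 in the fasted libraries against 6.82 and 6.69 in the non-fasted libraries.

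Sgk1 was one of 2 members whose promoters held the core letters of a glucocorticoid response element, ACANNNTGT, searched on both strands. The windows ran from 250 bases before to 50 after each RefSeq start site of build GRCm38.p6, and 6.85% of all 32851 windows held the core. For 8 of the 10 genes, 16 windows were searched, and Nr3c1 and Zbtb16 were not analysed here. Sgk1 had the most windows of the 8 genes, and so the most occasions for a match. In Sgk1, 2 of its start sites had the core, 127 and 186 bases before the start, and its other windows had none. The third window with a core belonged to Mt1, 92 bases before its start. The stretches around these cores are shown 5′ to 3′ on the plus strand, with the core in capitals, so that the promoters of both fallen genes can be set side by side.
Sgk1 (chr10:21978519-21978578): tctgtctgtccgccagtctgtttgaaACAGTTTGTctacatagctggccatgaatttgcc
Sgk1 (chr10:21993678-21993737): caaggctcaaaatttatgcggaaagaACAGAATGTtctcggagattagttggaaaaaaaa
Mt1 (chr8:94178971-94179030): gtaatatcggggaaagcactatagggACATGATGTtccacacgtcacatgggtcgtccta
The 3 cores differ in the letters between their fixed ends, and a match of letters is no evidence that the receptor binds there.

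**Figure D2:**
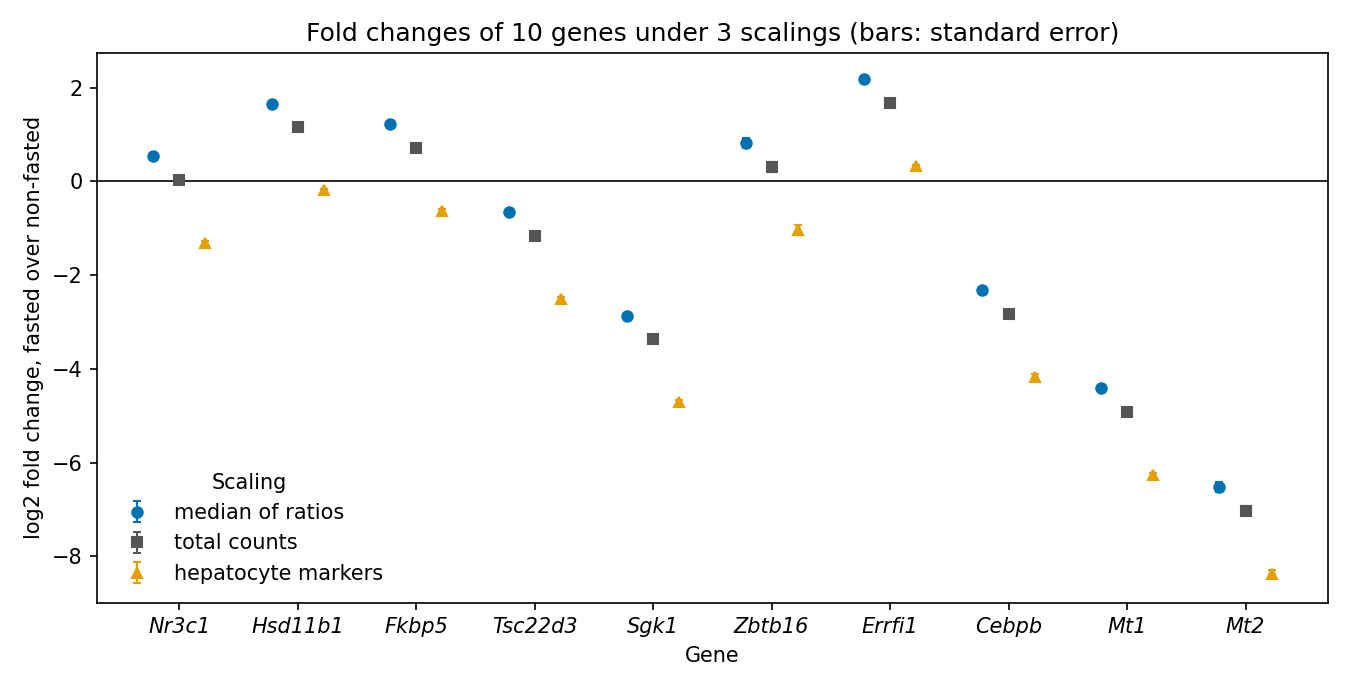
Log2 fold change of fasted over non-fasted libraries for each of the 10 genes with 3 scalings: median of ratios (circles), total counts (squares) and the hepatocyte markers (triangles), with bars for 1 standard error. Nr3c1, Hsd11b1, Fkbp5 and Zbtb16 change sign between the circles and the triangles, Errfi1 stays above 0, and Tsc22d3, Sgk1, Cebpb, Mt1 and Mt2 stay below 0 on all 3. The squares and triangles lie below the circles for every gene, so genes below 0 at the circles could only stay there.

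The metallothioneins showed the largest differences of the 10 genes. Mt1 had 166 and 184 raw counts in the fasted libraries against 14397 and 14557 in the non-fasted libraries. Mt2 had 48 and 44 in the fasted libraries against 16115 and 16653 in the non-fasted libraries. Both genes were thus nearly empty in the fasted libraries and abundant in the non-fasted libraries, by a margin far wider than the ratio of the library totals.

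After normalization Mt1 fell 21.3-fold, with 326 and 363 normalized counts in the fasted libraries against 7312 and 7399 in the non-fasted ones (log2 fold change -4.42 ± 0.05, SE, n = 2 per group, edgeR adjusted p = 9.0e-12). Mt2 fell 91.8-fold, with 94.3 and 86.8 normalized counts in the fasted libraries against 8185 and 8464 in the non-fasted ones (log2 fold change -6.52 ± 0.10, SE, n = 2 per group, edgeR adjusted p = 3.0e-11). Of all genes tested, 9.78% fell further than Mt1 and 6.39% further than Mt2. Per 100000 hepatocyte-marker counts, Mt1 had 9.01 and 9.99 counts in the fasted libraries against 704 and 716 in the non-fasted libraries. Mt2 had 2.61 and 2.39 in the fasted libraries against 788 and 819 in the non-fasted libraries. The fitted falls on the hepatocyte-marker scale were 77.0-fold for Mt1 and 331-fold for Mt2.

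The fall was unequal between the metallothioneins, as ratios within a library show, since no scaling changes them. Mt2 counts per Mt1 count were 0.29 and 0.24 in the fasted libraries against 1.12 and 1.14 in the non-fasted libraries, 4.30-fold lower. The transcripts of Mt1 and Mt2 share no stretch of 50 bases, and their longest shared run is 20 bases. Of the 554 such stretches in Mt2, 45.8% lie on the opposite strand of the unnamed gene model Gm45774, so reads of those stretches cannot be assigned without strand. Markers of placenta moved with both genes, with 6 and 5 trophoblast counts in the fasted libraries against 2100687 and 2118541 in the non-fasted libraries, and the part of that RNA in the fall was not tested.

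The promoters of Mt1 and Mt2, neighbours on chromosome 8, are shown because both genes fell so far and because zinc acts on them through metal response elements. The 250 bases before each start site are given 5′ to 3′ on the plus strand, which is the coding strand of both genes, with matches to TGCACNC or TGCGCNC on either strand in capitals.
Mt1 (chr8:94178839-94179088): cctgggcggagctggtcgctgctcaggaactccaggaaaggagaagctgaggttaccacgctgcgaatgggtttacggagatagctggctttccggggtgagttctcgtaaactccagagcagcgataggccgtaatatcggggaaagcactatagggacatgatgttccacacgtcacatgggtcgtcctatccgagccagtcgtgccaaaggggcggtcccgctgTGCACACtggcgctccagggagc
Mt2 (chr8:94172368-94172617): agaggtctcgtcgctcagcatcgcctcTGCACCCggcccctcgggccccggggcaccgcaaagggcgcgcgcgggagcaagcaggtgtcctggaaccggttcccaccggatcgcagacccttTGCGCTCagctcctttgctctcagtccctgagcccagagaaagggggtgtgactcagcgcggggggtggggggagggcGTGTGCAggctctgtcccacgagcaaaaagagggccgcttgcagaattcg
With the 50 bases after the start, Mt1 had 3 such matches, 23 bases before and 2 and 20 after the start. Mt2 had 4, which lay 223, 128 and 50 bases before and 4 after the start, those at 50 before and 4 after being on the reverse strand. No match overlapped another or the glucocorticoid core of Mt1. At least 1 match was in 25.7% of all windows and 3 or more in 1.97%, and besides Mt1 and Mt2 single matches stood in windows of Hsd11b1 and Sgk1.

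**Figure D3:**
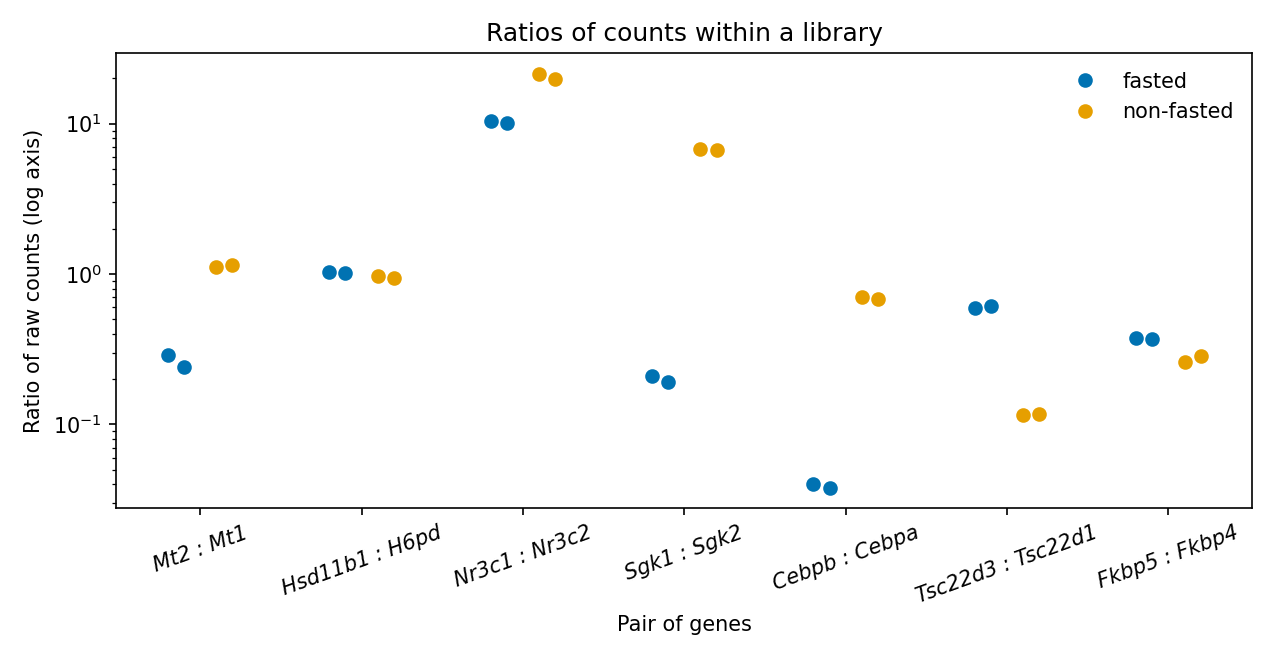
Ratio of raw counts of a gene to those of a partner or relative within each library, on a log axis, with the 2 fasted libraries (blue, left) and the 2 non-fasted libraries (orange, right) for each pair. A ratio within a library does not depend on the scaling, but it can differ with the mix of tissues, whose part was not tested. Sgk1 per Sgk2 is 0.21 and 0.19 in the fasted libraries against 6.82 and 6.69 in the non-fasted libraries, whereas Hsd11b1 per H6pd stays near 1 in all 4 libraries.

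Around the receptor, a list of 20 genes for the supply of hormone and for the chaperones and cofactors of NR3C1 went both ways. After median-of-ratios scaling 9 were higher, 10 were lower and 1 (Ep300) did not pass, beside 37.2% of all genes tested higher and 45.0% lower. The median log2 fold change was -0.04 against -0.13 for all genes tested. Serpina6, the corticosteroid-binding globulin that liver secretes, had 2562 and 2489 normalized counts in the fasted libraries against 698 and 687 in the non-fasted ones (log2 fold change 1.87), and H6pd rose likewise (1.56). Relative to the hepatocyte markers Serpina6 did not pass the test (0.01, edgeR adjusted p = 0.72), and the other 19 were lower, as were 91.4% of all genes. The chaperone Hsp90ab1, the most counted of the list, had a log2 fold change of 0.06 that turned to -0.45 relative to total counts. Hsd11b2, which inactivates corticosterone in mineralocorticoid target tissue, had 0 counts in both fasted libraries against 54 and 48 in the non-fasted libraries, at least 8.78-fold lower by a floor of 3 counts over the group. It was thus counted only in the libraries that held the placental markers, and the part of placental RNA in this was not tested.

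Among 20 other genes known as glucocorticoid targets, 10 were higher, 9 were lower and Nfkbia did not pass, with a median log2 fold change of 0.23, where 37.2% of all genes were higher and 45.0% lower. Pck1, the rate-limiting enzyme of gluconeogenesis, rose most and had 65890 and 65888 normalized counts in the fasted libraries against 3233 and 3200 in the non-fasted ones (log2 fold change 4.36). Its call was lost when either non-fasted library was left out, although the log2 fold change was 4.35 and 4.34, since edgeR's F statistic fell below 0 there. Angptl4, an inhibitor of lipoprotein lipase, followed (3.96), and Tdo2, which starts tryptophan breakdown, rose as well (2.19). These 3 stayed higher on the hepatocyte-marker scale, with log2 fold changes of 2.50, 2.11 and 0.34, together with G6pc and Sds, while 14 of the list were lower there, as were 91.4% of all genes. The stress gene Gadd45b fell most, with 15 and 9 raw counts in the fasted libraries against 2657 and 2658 in the non-fasted ones (log2 fold change -5.83). The cell cycle inhibitor Cdkn1a was next (-3.96).

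Around the metallothioneins, 16 of 18 genes for zinc transport and MTF1 were tested, of which 7 were higher and 9 lower. Over all genes tested, 37.2% were higher and 45.0% lower. The list had a median log2 fold change of -0.19. Mtf1 itself, the zinc sensor, had 213 and 245 raw counts in the fasted libraries against 1313 and 1219 in the non-fasted libraries, a log2 fold change of -0.51 (-2.36 on the hepatocyte-marker scale). The manganese exporter Slc30a10 rose (2.28) and was the 1 gene of the list higher on the hepatocyte-marker scale (0.43). There 15 were lower, as were 91.4% of all genes. The metal importer Slc39a8 rose by 1.44 on normalized counts and had a log2 fold change of -0.41 on the hepatocyte-marker scale. Of the other zinc importers, Slc39a6 fell furthest (-4.94), and Slc39a7, the most counted of the list, fell less (-0.61). Slc30a1, a zinc exporter whose gene is also switched on by MTF1, had a log2 fold change of 0.11 on normalized counts, -0.40 relative to total counts and -1.74 on the hepatocyte-marker scale. Mt1 counts per Slc30a1 count were 0.21 and 0.24 in the fasted libraries against 5.07 and 5.19 in the non-fasted libraries. Mt3, the brain metallothionein, had 0 counts in both fasted libraries against 54 and 46 in the non-fasted libraries, at least 8.60-fold lower.

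Among 14 tested relatives of the members, 7 were higher, 6 were lower and Zbtb7a did not pass, with a median of 0.10. By the same rule 37.2% of all genes were higher and 45.0% lower. On the hepatocyte-marker scale 1 relative was higher and 12 were lower, beside 3.89% and 91.4% of all genes. The receptor's closest relative, the mineralocorticoid receptor Nr3c2, had a log2 fold change of 1.55 beside 0.54 for Nr3c1 on normalized counts, but -0.30 beside -1.31 on the hepatocyte-marker scale. Nr3c1 counts per Nr3c2 count were 10.4 and 10.1 in the fasted libraries against 21.5 and 19.8 in the non-fasted libraries. Fkbp4, the relative of Fkbp5 that favours transport of the receptor, had a log2 fold change of 0.77 beside 1.22 for Fkbp5 on normalized counts, but -1.08 beside -0.63 on the hepatocyte-marker scale. Fkbp5 counts per Fkbp4 count were 0.38 and 0.37 in the fasted libraries against 0.26 and 0.28 in the non-fasted libraries.

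**Figure D4:**
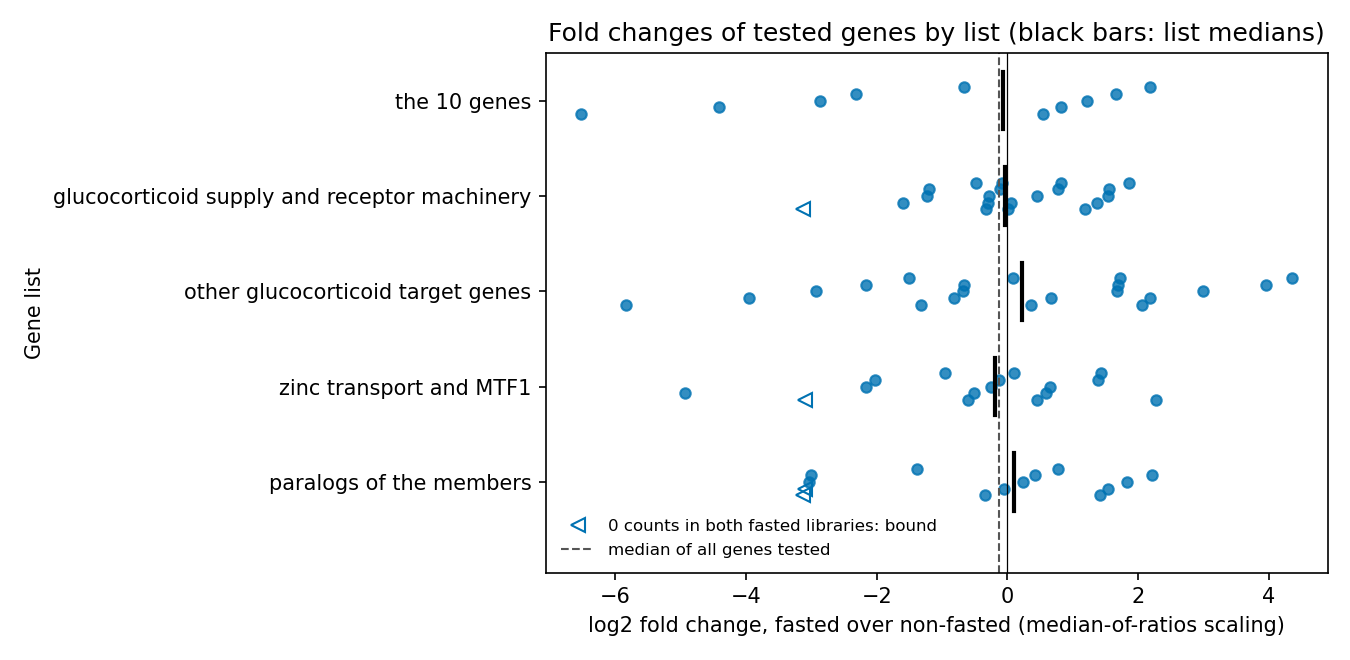
Each point is the log2 fold change of a tested gene, fasted over non-fasted, after median-of-ratios scaling, by list, with the median of each list (black bars) and of all genes tested (dashed line, -0.13). Open triangles mark genes with 0 counts in both fasted libraries at their bound, which leaves each median where it was. The 10 genes reach from -6.52 (Mt2) to 2.19 (Errfi1), and each list lies on both sides of 0.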

How the data were processed

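RNA sequencing counts of 4 mouse liver libraries were analysed, 2 fasted and 2 non-fasted, grouped by their titles; another label field gives fasting for all 4. The authors deposited raw counts per Entrez gene with no normalization. Per the labels they used Trimmomatic, STAR, featureCounts, FastQC, MultiQC and DESeq2 1.32.0 with GRCm39. No source used here states the strand or multi-mapping settings. Totals were 13528015 to 36975921 counts. Replicates of a group differed slightly more than sampling noise (chi-square per degree of freedom 1.12 fasted and 1.13 non-fasted) and were kept as 2 libraries each.

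Counts were filtered with filterByExpr, scaled by the median of ratios over the tested genes, and tested with edgeR 4.0.16 (glmQLFit and glmQLFTest, two-sided) in R 4.3.3, with Benjamini-Hochberg adjustment over all 15470 genes at 0.05. The common biological coefficient of variation was 0.0099. An exact permutation test of 2 against 2 libraries cannot go below p = 0.33 and was not used. Alternatives were TMM, total-count and hepatocyte-marker scaling, other filters, DESeq2 1.42.0, limma-voom (limma 3.58.1), the deviance computed exactly, a fixed coefficient of variation of 0.2, a minimum fold of 2, thinning to equal totals, a replicate block, and leaving out each library. Kupffer-marker scaling was added after seeing the data. Named were all 10 genes and, in each list, the 2 largest rises and falls past the threshold and the most counted gene, of which 1 is not reported here. The list genes Ep300, Nfkbia, G6pc, Sds, Mtf1, Slc30a1, Nr3c2, Fkbp4, Zbtb7a, Tsc22d2, Tsc22d4 and Cebpd fell outside this rule, and their values were known when they were picked. The members and lists were chosen with earlier results of these data known. Promoter sequences are RefSeq's for GRCm38.p6, and shared stretches were searched in GENCODE M21 transcripts. Figures were drawn with matplotlib 3.10.9. The test was tested on counts simulated with the fitted spread between libraries and few changed genes. This cannot show whether that spread is one between animals, nor which scaling holds.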

Additional observations from a re-analysis of the deposited data

How the results depend on the processing

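With TMM, no filter or a filter of 1 CPM in 2 libraries, DESeq2, limma-voom, the exact deviance and thinning to equal totals, each of the 10 genes kept its direction and its call. The counts over all genes, 5756 higher and 6965 lower, were 5245 and 6230 with DESeq2. Relative to total counts 3551 genes were higher, as were 4 of the zinc list, and Hsp90ab1 was at -0.45. On the hepatocyte-marker scale 602 genes were higher and 14144 lower. There 1 of the 10 genes was higher and 9 lower, 0 and 19 of the receptor list, 5 and 14 of the other targets, and 1 and 15 of the zinc list. The log2 fold changes whose sign turned were Nr3c1 -1.31, Hsd11b1 -0.19, Fkbp5 -0.63, Zbtb16 -1.03, H6pd -0.29, Hsp90ab1 -1.80, Slc39a8 -0.41 and Cebpa -0.019. Of these, Cebpa did not pass the test (edgeR adjusted p = 0.53). Relative to 6 Kupffer cell markers, chosen after seeing the data, 212 genes were higher and 14752 lower, and the counts were 0 and 9 of the 10 genes, 0 and 20 of the receptor list, 3 and 16 of the other targets, and 0 and 15 of the zinc list. Those whose sign turned were Nr3c1 -1.72, Hsd11b1 -0.60, Fkbp5 -1.03, Zbtb16 -1.44, Errfi1 -0.070, Serpina6 -0.39, H6pd -0.70, Hsp90ab1 -2.20, Tdo2 -0.069, Slc39a8 -0.81, Sgk2 -0.041 and Cebpa -0.42. Errfi1, Tdo2 and Sgk2 did not pass the test there (edgeR adjusted p = 0.33, 0.36 and 0.62). These scalings shift all genes by construction. Which scale holds for these livers was not tested.

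With a fixed coefficient of variation of 0.2, 3714 genes were higher, 4 of the receptor list were lower, and 4 and 5 of the zinc list were higher and lower. With a minimum fold of 2, 2273 genes were higher and 3990 lower, 3 of the 10 genes were higher, 5 and 4 of the receptor list, and 3 and 4 of the zinc list were higher and lower, with Nr3c1, Zbtb16 and Tsc22d3 no longer called. Leaving out each library in turn gave 5192 to 5311 higher and 6066 to 6288 lower genes, 5 and 5 of the 10 genes each time, 9 higher and 8 to 9 lower of the receptor list, 9 to 10 and 9 of the other targets, and 6 to 7 and 6 to 9 of the zinc list. Pck1 lost its call without either non-fasted library (log2 fold change 4.35 and 4.34), where edgeR's F statistic fell below 0. It also lost its call in edgeR's test with a minimum fold of 2 (adjusted p = 0.52). Its log2 fold change there was 4.36, while Angptl4 at 3.96 kept its call. This loss therefore does not mean a rise near 2-fold, and its reason was not tested. Replicate numbers did not pair the samples (r = -0.01 over 11348 genes), and a replicate block gave 5743 higher and 6929 lower genes and changed no call of a named gene. Depth limits the 10 genes most in Mt2, with 44 counts in the poorer fasted library, and Mt3 and Hsd11b2, at 0 there, have only a bound.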

Other observations

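Of the zinc list, 2 genes fell below the filter on low counts. Mt4, a metallothionein of stratified epithelium, had 0 counts in both fasted libraries against 6 and 9 in the non-fasted libraries, at least 1.29-fold lower by a floor of 3 counts over the group. The zinc importer Slc39a5 had 2 and 7 counts in the fasted libraries against 9 in each non-fasted library.

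Further targets of the receptor, picked with their values known, had the following values. The clock gene Per1 had a log2 fold change of -2.17 and Ddit4, an inhibitor of mTOR signalling, one of -2.92, whereas the transcription factors Klf9 and Klf15 had 0.66 and 1.70 after median-of-ratios scaling. On the hepatocyte-marker scale all 4 were below 0, at -4.02, -4.78, -1.19 and -0.15. Cebpd, a relative of Cebpb, had 19 and 24 raw counts in the fasted libraries against 638 and 701 in the non-fasted libraries, 8.02-fold lower after normalization and 28.9-fold lower on the hepatocyte-marker scale.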
